A study of Mus musculus with 6 samples.

Results

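Fatty acid and triglyceride synthesis was followed through 37 genes in whole inguinal mammary glands of mice with or without Mt1-mmp (now named Mmp14) in the stroma. The genes are a list of pathway members in 5 steps (supply of NADPH and acetyl-CoA, synthesis, elongation and desaturation, esterification with its glycerol supply, and regulators), not a set picked by a threshold on the values. Of the 37 genes, 34 had a probe set annotated to 1 gene symbol, among 22180 such genes on the array. G6pdx had no probe set named here, and the probe sets of Tkt and Scd2 carry a microRNA symbol as well, so these 3 genes were not analysed here. All 34 measured genes were above 2.68 log2 units, the 33rd percentile of gene levels, on all 6 arrays, and no filter on low signal was applied.

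Glands came from C57BL/6J mice at 4 weeks of age. The 3 wild-type mice, Mt1-mmp(+/+), were littermates of the 3 knockout mice, Dermo1Cre/Mt1-mmp(fl/fl), in which Cre driven from Dermo1 (now Twist2), a gene of mesenchymal cells, deletes the floxed metalloproteinase gene. The labels give Cre in the knockout mice alone, so an effect of Cre cannot be told apart from that of the deletion. Each mouse gave 1 array. Mmp14 was 10.88 ± 0.32 log2 units (SD, n = 3) in wild type and 8.62 ± 0.11 in the knockout, with no overlap (4.77-fold lower, limma adjusted p = 0.000454), so the arrays go with their labels. Cells without Cre keep the gene, and the whole gland was taken. Twist2 itself differed by -0.47 (limma adjusted p = 0.277). Values are log2 signals, in which a difference of 1 unit is a 2-fold change, and every group has n = 3.

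New fatty acids are built in the cytosol from citrate that leaves the mitochondrion. ATP-citrate lyase frees acetyl-CoA, acetyl-CoA carboxylase turns it into malonyl-CoA, and fatty acid synthase joins these units with NADPH from malic enzyme and the pentose phosphate pathway. Elongases and desaturases then lengthen the chains and add double bonds, and acyltransferases, lipins and DGAT enzymes attach them to glycerol 3-phosphate to form triglyceride. White fat fills most of the mammary fat pad and both makes and stores such lipid, brown fat makes it as fuel for heat, and the ductal epithelium turns to it for milk in lactation.

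The pathway did not move as 1 unit. In the knockout, 5 members rose (Acacb, Gpd1, Pck1, Lpin1 and Dgat1) and 4 fell (Elovl7, Fads2, Pnpla3 and Mid1ip1), while 25 did not pass the limma test at an adjusted p under 0.05. All 4 rises outside the synthesis step lay in esterification and its glycerol supply. Over all genes the same test called 12.2% (5.05% rose and 7.2% fell), against 26.5% of the members (14.7% and 11.8%). Among all 22180 genes, 6925 had both group means under 2.68, against 0 of the members. The shares are therefore not matched for level, and a share over genes of like level was not computed. The median difference, knockout minus wild type, was -0.16 over the members and 0.03 over all genes. Groups did not overlap in 13 of the 34 members, against 32.7% of all genes. No test over the list was made, since the genes were listed with earlier results known.

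**Figure D1:**
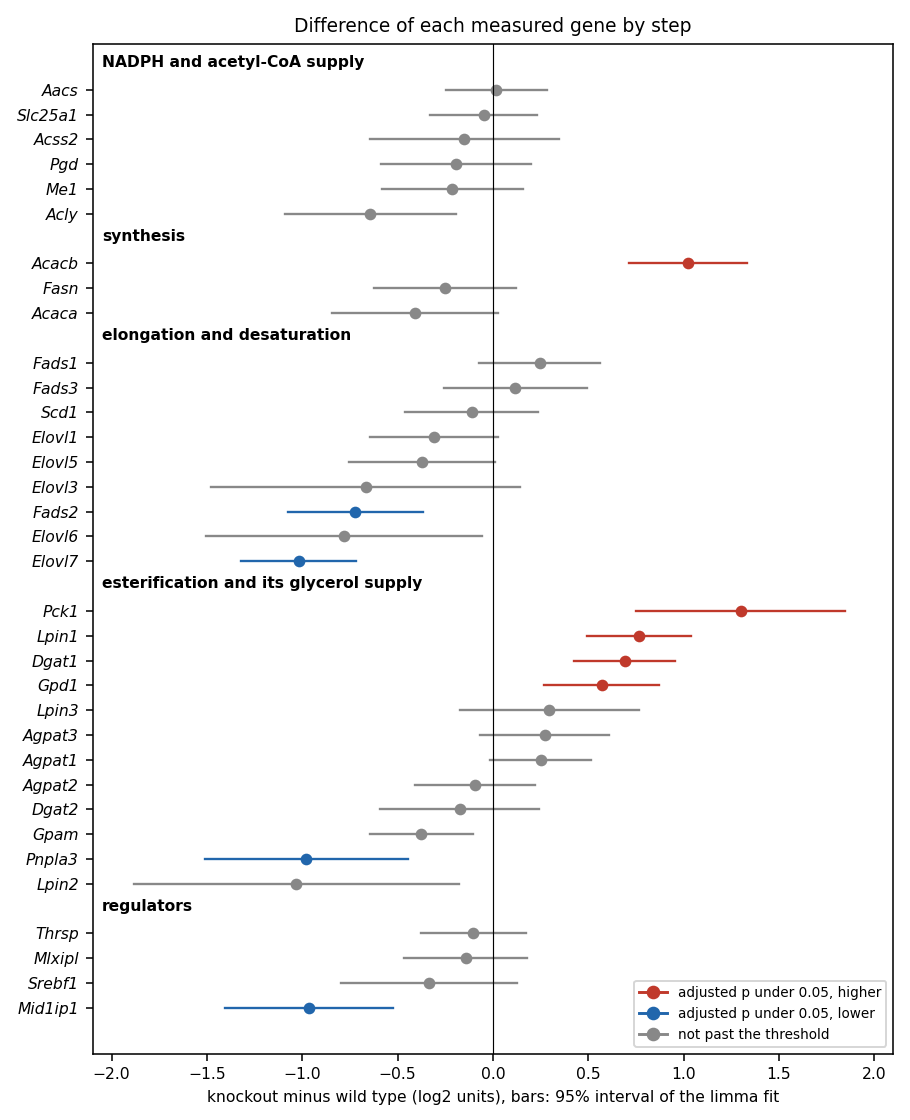
Knockout minus wild-type difference (x axis, log2 units) of each measured gene, grouped by step, with points for the estimate and bars for the 95% interval of the limma fit. The 5 red genes are higher and the 4 blue genes lower in the knockout, and the red genes other than Acacb sit in the esterification step.

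In the supply of acetyl-CoA and NADPH, 0 of 6 measured genes passed the limma test, and 1 of them (Acly) passed an unadjusted p under 0.05. Acly, which encodes ATP-citrate lyase, read 11.48, 10.99 and 11.15 on wild-type arrays 1 to 3 and 10.44, 10.34 and 10.92 on knockout arrays 1 to 3. The groups did not overlap, knockout 3 lying closest to the wild type, and the difference of -0.64 ± 0.19 (SE) missed the threshold (limma adjusted p = 0.0717). It passed with an intensity trend in the variance (0.0212) and without knockout 3 (-0.82, limma adjusted p = 0.0310), and did not pass with any other array left out (adjusted p up to 0.201). The citrate carrier Slc25a1 (-0.05), the cytosolic acetyl-CoA synthetase Acss2 (-0.15), the malic enzyme Me1 (-0.21), the pentose phosphate enzyme Pgd (-0.19) and the acetoacetyl-CoA synthetase Aacs (+0.02) all had intervals that include 0.

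At the committed step 1 of the carboxylase genes rose, Acacb, and the other, Acaca, did not pass. Acacb encodes the isoform at the mitochondrial membrane, whose malonyl-CoA restrains entry of fatty acids for oxidation. Its levels were 9.21, 9.50 and 9.48 in wild type and 10.58, 10.36 and 10.32 in the knockout. Every knockout array lay above every wild-type array, a rise of 1.02 ± 0.13 log2 units (2.03-fold, limma adjusted p = 0.00354) that held without any 1 array (adjusted p 0.00842 to 0.0169). Acaca encodes the cytosolic isoform that feeds synthesis, and it read 11.20, 11.04 and 11.21 in wild type and 10.42, 10.66 and 11.15 in the knockout. Knockout 3 fell among the wild-type arrays and the other knockout arrays lay below them, a difference of -0.41 ± 0.19 (limma adjusted p = 0.215). It was -0.61 without knockout 3 (limma adjusted p = 0.0417) but -0.25 without knockout 1 (0.464). The fatty acid synthase gene Fasn was among the brightest genes, at 12.44, 12.20 and 12.45 in wild type and 11.90, 12.03 and 12.41 in the knockout. Its groups overlapped, with a difference of -0.25 and a 95% interval of -0.62 to 0.12 (limma adjusted p = 0.377), at levels close to the array maxima of 13.3 to 13.4.

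Among the elongases, Elovl7, which acts on saturated long chains, was the clearest fall of all members. It read 5.38, 5.39 and 5.22 in wild type and 4.13, 4.35 and 4.46 in the knockout, well separated. The fall was 1.02 ± 0.13 log2 units (2.02-fold, limma adjusted p = 0.00316), and it held without any 1 array (adjusted p 0.00606 to 0.0188). Elovl6, which carries palmitate to stearate and so acts directly after Fasn, read 10.90, 11.34 and 11.06 in wild type and 9.76, 10.13 and 11.07 in the knockout. Knockout 1 and 2 lay below all wild-type arrays, whereas knockout 3 lay among them. The difference of -0.78 ± 0.31 did not pass (limma adjusted p = 0.159), and it was -1.16 without knockout 3 (limma adjusted p = 0.0135) but -0.50 without knockout 1 (0.357). Elovl3, an elongase of brown fat and sebaceous gland, had the same layout, with 6.24, 6.78 and 6.00 in wild type and 5.32, 5.21 and 6.48 in the knockout (-0.67, limma adjusted p = 0.278). It was -1.07 without knockout 3 (limma adjusted p = 0.0333) and -0.44 without knockout 2 (0.551). Elovl5 (-0.37), which lengthens polyunsaturated chains, and Elovl1 (-0.31), which makes very long saturated chains, did not pass.

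Of the 4 measured desaturases, Fads2 fell and the others did not pass. Fads2 encodes the delta-6 desaturase that starts the synthesis of long polyunsaturated fatty acids. It was 8.43, 8.0004 and 8.20 in wild type and 7.42, 7.37 and 7.68 in the knockout, without overlap. This fall of 0.72 ± 0.15 (1.65-fold, limma adjusted p = 0.0214) did not pass once wild type 1 or 3, or knockout 1 or 2, was left out (adjusted p 0.0646 to 0.0789). Its neighbour Fads1, the delta-5 desaturase of the same route, differed by +0.25 (limma adjusted p = 0.309) and Fads3 by +0.12. Scd1, the stearoyl-CoA desaturase that makes oleate, read 12.35, 12.54 and 12.41 in wild type and 12.06, 12.36 and 12.55 in the knockout. The groups overlapped, with the highest and the lowest value both in the knockout (-0.11, 95% interval -0.46 to 0.24, limma adjusted p = 0.70).

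Glycerol 3-phosphate, the backbone of triglyceride, is made by Gpd1 from dihydroxyacetone phosphate, which comes from glucose or, through Pck1, from smaller precursors such as pyruvate. Both genes rose. Pck1, the enzyme of glyceroneogenesis in fat, had the largest rise among the members, with 10.24, 11.09 and 11.01 in wild type and 11.83, 12.21 and 12.19 in the knockout. Wild type 1 was the lowest array and stood apart from the other wild-type arrays. The rise was 1.30 ± 0.24 (2.46-fold, limma adjusted p = 0.0120) and 1.03 without wild type 1 (limma adjusted p = 0.0200). Gpd1, the cytosolic glycerol 3-phosphate dehydrogenase, read 10.43, 10.06 and 10.22 in wild type and 10.77, 10.80 and 10.85 in the knockout. Its rise of 0.57 ± 0.13 (1.48-fold, limma adjusted p = 0.0279) was lost without any 1 array other than wild type 1 (adjusted p 0.0661 to 0.0837). A second, dimmer Gpd1 probe set differed by +0.26, and the mean of both did not pass (+0.41, limma adjusted p = 0.0720).

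Acyl chains are added to that backbone in order. Gpam, the mitochondrial acyltransferase that adds the first chain, was 11.28, 11.03 and 11.14 in wild type and 10.75, 10.73 and 10.84 in the knockout. All knockout arrays lay below the wild-type arrays, but the difference of -0.37 ± 0.12 missed the threshold (limma adjusted p = 0.0810), passing with an intensity trend (0.0123) and with low genes left out (0.0491). The second acyltransferases Agpat1 (+0.25), Agpat2 (-0.09) and Agpat3 (+0.27) did not pass. Agpat2 is the form whose loss causes lipodystrophy, and its arrays overlapped, whereas all knockout arrays of Agpat1 and Agpat3 lay above the wild type.

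Lipins remove the phosphate to give diacylglycerol. Lpin1, the main lipin of fat, was 10.61, 10.45 and 10.45 in wild type and 11.23, 11.39 and 11.19 in the knockout, with a tight spread in both groups. It rose by 0.77 ± 0.12 (1.70-fold, limma adjusted p = 0.00662). Lpin2 read 5.76, 7.35 and 6.76 in wild type and 5.83, 5.69 and 5.27 in the knockout. Wild type 1 lay among the knockout arrays, and the difference of -1.03 ± 0.37 did not pass (limma adjusted p = 0.117). It depended on single arrays, at -1.46 (limma adjusted p = 0.0218) without wild type 1 and -0.67 (0.256) without wild type 2. A second Lpin2 probe set had 6.34, 6.68 and 6.45 in wild type and 5.54, 5.30 and 5.69 in the knockout. It showed no overlap and passed in the fit of all probe sets (-0.98 ± 0.16, limma adjusted p = 0.0280), and so did the mean of both (-1.003, limma adjusted p = 0.0284). Lpin3 differed by +0.30 (limma adjusted p = 0.408).

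The last chain is added by either of 2 unrelated DGAT enzymes. Dgat1 was 9.30, 9.21 and 9.27 in wild type and 10.02, 10.01 and 9.82 in the knockout, so that the groups lay far apart for their spread. It rose by 0.69 ± 0.11 (1.62-fold, limma adjusted p = 0.00859). Dgat2, which is tied to newly made fatty acids, read 11.69, 11.34 and 11.58 in wild type and 11.09, 11.29 and 11.70 in the knockout. Knockout 3 was the highest of all 6 arrays and the groups overlapped (-0.17, 95% interval -0.59 to 0.24, limma adjusted p = 0.598). Pnpla3, a lipid droplet protein of hepatocytes and adipocytes that responds to feeding, was 10.28, 9.84 and 9.88 in wild type and 8.52, 9.27 and 9.27 in the knockout. Knockout 1 was the lowest by a wide gap. This fall of 0.98 ± 0.23 (1.97-fold, limma adjusted p = 0.0319) did not pass once knockout 2 or any of the wild-type arrays was left out (adjusted p 0.0507 to 0.108).

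**Figure D2:**
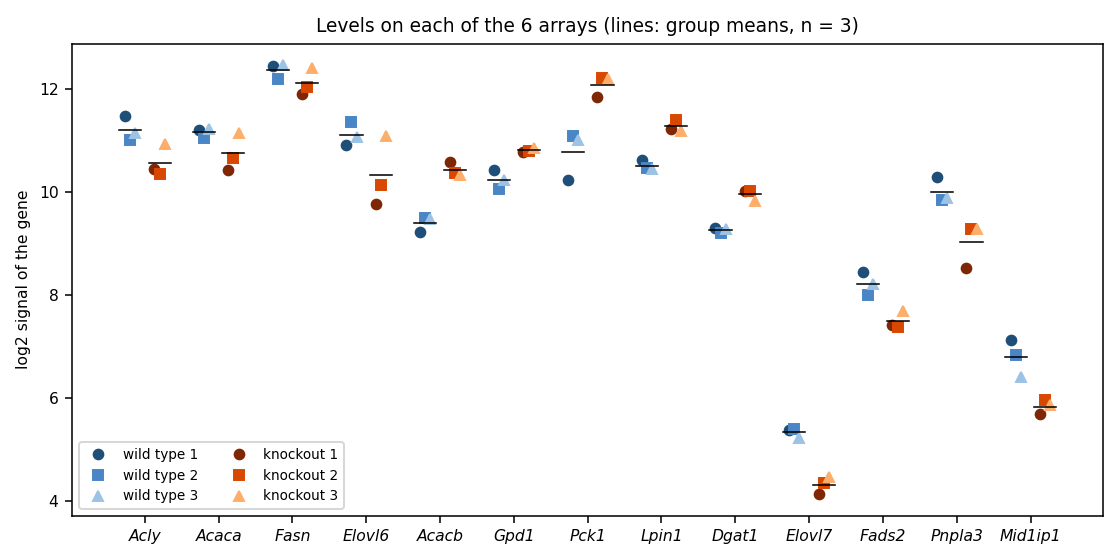
Log2 signal (y axis) of 13 genes on each of the 6 arrays, with blue marks for wild type, orange and brown marks for the knockout and lines for the group means. Acacb, Gpd1, Pck1, Lpin1 and Dgat1 lie higher on every knockout array, and knockout 3 lies near the wild-type arrays for Acaca, Fasn and Elovl6. Levels of different genes come from different probes and are not to be compared.

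Of the 4 regulators, 1 fell and 0 rose. Srebf1 encodes SREBP-1, the insulin-responsive transcription factor of lipogenesis, and read 9.03, 8.45 and 8.54 in wild type and 8.06, 8.37 and 8.60 in the knockout. Knockout 3 lay above 2 of the wild-type arrays (-0.33, limma adjusted p = 0.342). Mlxipl, which encodes the glucose-responsive factor ChREBP, read 10.50, 10.21 and 10.15 in wild type and 10.28, 10.14 and 10.02 in the knockout (-0.14, limma adjusted p = 0.576). Thrsp (Spot 14), a lipogenic protein of fat and mammary gland, read 11.86, 11.69 and 11.67 in wild type and 11.55, 11.63 and 11.74 in the knockout (-0.10, limma adjusted p = 0.642). For all 3 the groups overlapped. Mid1ip1, a relative of Thrsp that promotes assembly of acetyl-CoA carboxylase, was 7.13, 6.84 and 6.41 in wild type and 5.69, 5.95 and 5.85 in the knockout. It fell by 0.96 ± 0.19 (1.95-fold, limma adjusted p = 0.0164), a call lost without wild type 2 (0.0538) or knockout 1 (0.0550). Both other Mid1ip1 probe sets were dim, at 3.31 and 3.06 in wild type, and differed by -0.06 and +0.30. Averaging all 3 gave -0.24 (limma adjusted p = 0.296).

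Families and paired steps were then compared within each array, which asks whether relatives changed unequally and not which is the more abundant. Of 14 pairs, 12 had both genes measured. The log2 difference Acacb minus Acaca moved by 1.43 between the groups, Lpin1 minus Lpin2 by 1.80, Dgat1 minus Dgat2 by 0.87 and Fads2 minus Fads1 by -0.97. For these 4 pairs, and for Thrsp minus Mid1ip1 (0.86), Pck1 minus Gpd1 (0.73), Agpat2 minus Agpat3 (-0.36) and Agpat2 minus Agpat1 (-0.35), the groups did not overlap. Each of these 8 reached an exact two-sided permutation p of 0.1, the smallest that 3 against 3 arrays allow (0.15 after Benjamini-Hochberg adjustment over the 12 pairs), so none could pass 0.05. All of them but the Agpat pairs hold a member called on its own above, so they largely restate those calls. The pairs were chosen with earlier results known, and the share of other gene pairs without overlap was not computed. Single choices moved some of these: Pck1 minus Gpd1 was 0.36 without wild type 1, Agpat2 minus Agpat1 was -0.23 without wild type 1, and Thrsp minus Mid1ip1 was 0.14 with the mean of probe sets. Lpin1 and Lpin3 (0.47), Elovl6 and Elovl5 (-0.41, and -0.17 without knockout 1), Srebf1 and Mlxipl (-0.19) and Elovl3 and Elovl6 (0.11) had overlapping groups.

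**Figure D3:**
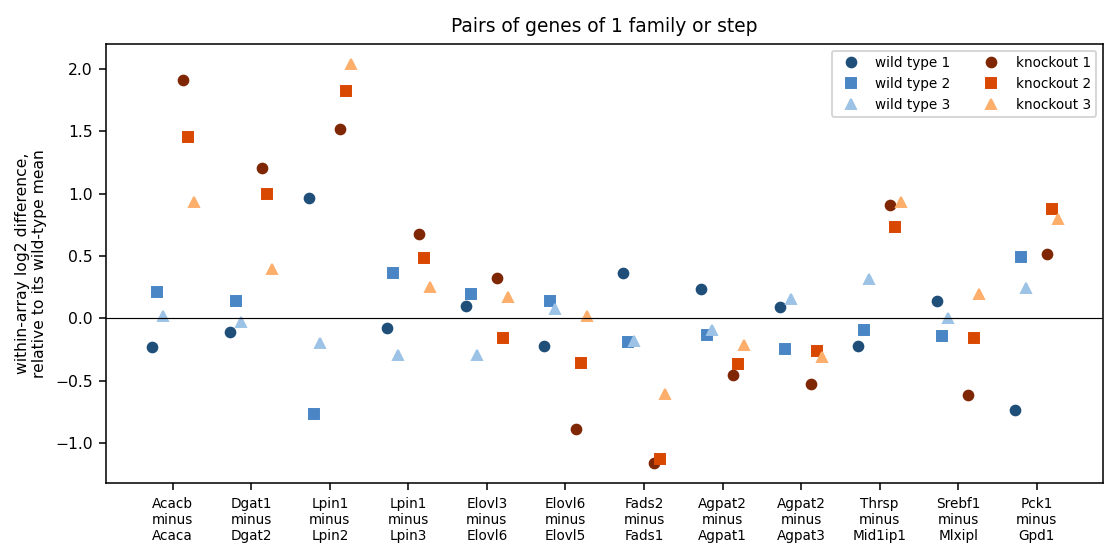
Within-array log2 difference of each gene pair, relative to its mean over the wild-type arrays (y axis), with 1 mark per array. For Acacb minus Acaca and Dgat1 minus Dgat2 all knockout arrays lie above all wild-type arrays, and for Fads2 minus Fads1 all lie below.

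The knockout arrays differed among themselves in this pathway. Knockout 3 was the highest of the 3 knockout arrays in 23 of 34 members (67.6%), against 36.6% of all genes. It lay above the mean of knockout 1 and 2 by 1.21 log2 units for Elovl3, 1.13 for Elovl6, 0.62 for Acss2, 0.60 for Acaca, 0.53 for Acly and 0.44 for Fasn. For the rises it was not set apart in this way, at -0.15 for Acacb, -0.12 for Lpin1, -0.20 for Dgat1, +0.07 for Gpd1 and +0.17 for Pck1. Without knockout 3, 8 members fell, the 4 named above with Acly, Acaca, Elovl3 and Elovl6, and the member median was -0.31. The rises without knockout 3 numbered 4, all but Gpd1. With any other array left out, 2 or 3 members fell. Whether knockout 3 came from a gland that differed in other ways was not tested.

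**Figure D4:**
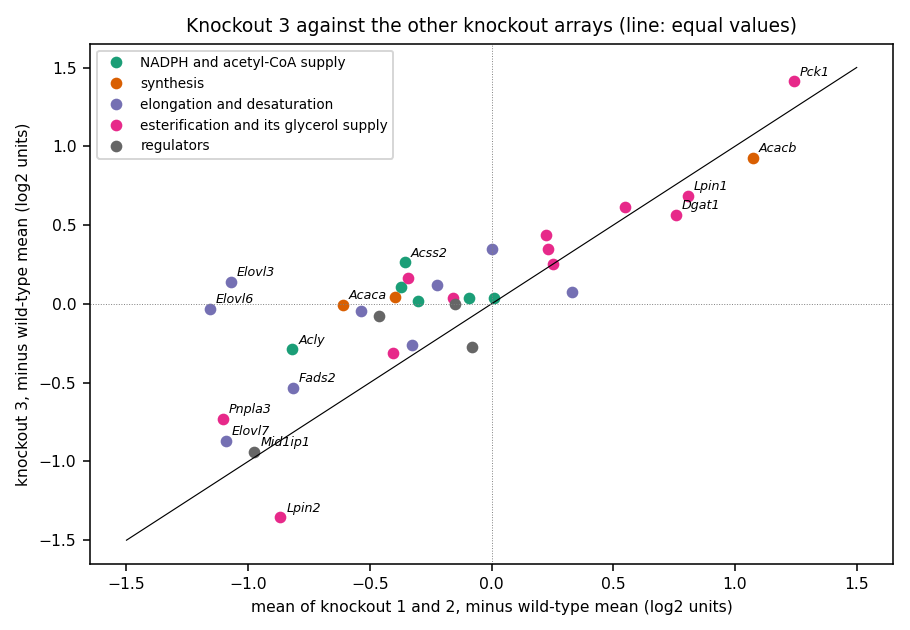
Each measured gene by its mean on knockout 1 and 2 (x axis) and its value on knockout 3 (y axis), both relative to the wild-type mean in log2 units and coloured by step. Acly, Acaca, Elovl3 and Elovl6 lie well above the line of equal values, while Acacb, Lpin1, Dgat1 and Pck1 lie close to it.

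The letters upstream of the start site are shown for the member with the largest rise (Pck1) and for Fads2 and Pnpla3, which are among the members that fell. They are RefSeq promoters of GRCm38.p6, each 5′ to 3′ on the strand of the gene. Pck1 lies at chr2:173152823-173153072 (plus strand), Fads2 at chr19:10101504-10101753 (minus strand) and Pnpla3 at chr15:84167566-84167775 (plus strand), where the last stops 40 bases short of the listed start because the outermost annotated start of the gene lies there. Capitals mark the motifs found: GGGCGG (GC box), CCAAT (NF-Y box) and TNACGTCA (cAMP response element), on either strand.
Pck1 promoter: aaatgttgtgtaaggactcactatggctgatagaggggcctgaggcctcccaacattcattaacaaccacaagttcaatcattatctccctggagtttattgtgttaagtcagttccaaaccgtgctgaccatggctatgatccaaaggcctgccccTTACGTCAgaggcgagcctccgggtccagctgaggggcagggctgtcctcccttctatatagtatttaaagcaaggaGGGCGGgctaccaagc
Fads2 promoter: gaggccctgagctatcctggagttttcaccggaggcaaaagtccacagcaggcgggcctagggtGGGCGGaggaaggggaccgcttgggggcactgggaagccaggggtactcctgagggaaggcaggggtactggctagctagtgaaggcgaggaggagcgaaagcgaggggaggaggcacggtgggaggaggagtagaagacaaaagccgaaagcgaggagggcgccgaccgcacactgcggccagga
Pnpla3 promoter: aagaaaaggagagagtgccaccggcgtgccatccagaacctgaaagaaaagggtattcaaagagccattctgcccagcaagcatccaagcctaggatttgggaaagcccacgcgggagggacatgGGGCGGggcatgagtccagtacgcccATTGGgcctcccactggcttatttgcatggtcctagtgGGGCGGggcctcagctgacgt

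Over windows of 300 bases, 250 before and 50 after the start, 30 of the 37 members had at least 1 promoter in the table, 41 promoters in all. The sterol regulatory element core TCACNCCAC was in 1 member promoter, of Mlxipl, and in 1.24% of all 32851 promoters. The E-box core CACGTG was in 5 member promoters (12.2%, against 7.15% of all), none of them of a gene that rose or fell. CCAAT was in 18 (43.9%, against 37.4%) and GGGCGG in 25 (61%, against 35.7%). All 4 genes that fell, 1 of the 3 matched genes that rose and 14 members without a call held GGGCGG. With the unmeasured Tkt and G6pdx, 21 of the 30 members with a promoter held it. Gpd1 and Dgat1, which rose, had no promoter in the table. TNACGTCA, a motif added after the promoters had been read, was in 4 member promoters (9.76%, against 2.93% of all), among them Pck1, which rose, and Pnpla3, which fell. In Pck1 it starts at base -93 from the start site, and in Pnpla3 at -46, across the end of the printed stretch. These matches describe letters, and sites outside the windows were not searched.

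Beside the members, 69 other measured genes of the pathway were read from 4 lists. Of these, 19 rose and 2 fell (30.4% called, against 12.2% of all genes, again not matched for level). With 1 array left out, 8 to 16 of them rose. In the list of other NADPH, acetyl-CoA and acyl-CoA supply, 8 of 16 rose and 0 fell. The count depended on single arrays, with 3 that rose without wild type 3 or without knockout 2, 4 without wild type 1, wild type 2 or knockout 1, and 6 without knockout 3. H6pd, Pgls, Taldo1 and Pcx, with Me3, made up the loss. The rises were led by Acss1, the mitochondrial acetyl-CoA synthetase (+1.15, limma adjusted p = 0.0101), its relative Acss3 (+0.98) and the mitochondrial malic enzyme Me3 (+0.92). The cytosolic counterparts Acss2 and Me1 were at -0.15 and -0.21, but the difference between counterparts was not tested. Acss1 missed the threshold with the mean of its probe sets (+0.62, limma adjusted p = 0.0559), and Me3 did so once wild type 1 or 3, or knockout 1 or 2, was left out (0.101 to 0.121). Of 14 other elongation and desaturation genes, 1 rose (Hacd2, +0.62) and 1 fell (Hacd4, -0.97), both dehydratases of the elongation cycle. The share called in that list, 14.3%, was near that of all genes. Hacd2 kept its call only in the fit without knockout 3 among those with 1 array fewer (otherwise 0.0571 to 0.0796).

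Of 15 other glycerolipid assembly genes, 7 rose and 1 fell, and the median difference was 0.41. With 1 array left out, 3 to 6 of them rose, with 3 in the fit without wild type 3, where Gpat3, Mogat1, Gpd1l and Bscl2 no longer passed. The glycerol channel Aqp7 rose by 1.36 ± 0.13 (limma adjusted p = 0.000862), the lipid droplet protein Fitm2 by 1.07 ± 0.14 (0.00363) and Gpat4, an acyltransferase of the endoplasmic reticulum that adds the first chain, by 1.05 ± 0.11 (0.00163), beside Gpam at -0.37. Of 24 genes for upstream control of lipogenesis, 3 rose and 0 fell, so 12.5% were called, near the 12.2% of all genes. With 1 array left out, 1 or 2 rose. The 3 that rose in the fit of all 6 arrays were the adipocyte factor Cebpa (+0.74), the insulin receptor Insr (+0.61) and the receptor substrate Irs2 (+0.59). Cebpa was lost without wild type 2 or 3 or knockout 2 (limma adjusted p 0.0569 to 0.0654), and Irs2 without any 1 array other than wild type 3 (0.0554 to 0.0847).

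Cell type markers moved with the groups, except those of sebocytes and epidermis and of skeletal muscle, whose summed signals overlapped. The part of any such markers in the changes above was not tested. For the counts below, 5.05% of all genes rose and 7.2% fell, not matched for level. In whole tissue, fewer cells of a type and less RNA per cell cannot be told apart. Of 15 luminal epithelial markers 12 fell and 0 rose, and the log2 of their summed signal was 11.86 to 12.02 in wild type and 10.06 to 10.40 in the knockout, led by Pgr (-3.41), with the milk genes Csn2 and Wap under 2.68 in both groups. Of 15 white adipocyte markers 7 rose and 0 fell (15.18 to 15.20 against 15.46 to 15.56), and of 11 thermogenic markers 6 rose and 0 fell (10.06 to 11.34 against 12.36 to 12.86), led by Slc27a2 (+3.43), Cidea (+2.40) and Otop1 (+2.12). Elovl3 stands in the thermogenic list too, but was not among the 6. Neither were Ucp1 (+3.04, limma adjusted p = 0.0709), Prdm16 (+0.42), Ebf2 (+0.39) and Dio2, which like Elovl3 was lower in the knockout (-0.65). The 8 white adipocyte markers without a call included Adipoq (+0.29), Fabp4 (+0.11), Cidec (+0.14), Lpl (+0.15), Retn (+0.11) and Lep (-0.15). Aqp7, which rose, and Pparg, which was not called, stand in both the white adipocyte list and a pathway list. Fibroblast markers fell in 5 of 11 (14.13 to 14.45 against 13.78 to 13.90), basal markers in 7 of 9 (11.98 to 12.17 against 10.99 to 11.40) and macrophage markers in 5 of 8 (12.14 to 12.43 against 11.52 to 11.68). Lymphocyte markers fell in 2 of 9 (8.64 to 8.97 against 7.96 to 8.22). Of sebocyte and epidermal markers 1 of 12 fell (8.33%, near the share of all genes), and the signals overlapped (8.29 to 8.44 against 8.11 to 8.97). Awat1, Awat2, Dgat2l6, Lor and Flg were under 2.68 in both groups. Skeletal muscle signal was 7.37 to 10.39 in wild type and 7.35 to 7.44 in the knockout. The value of 10.39 was that of wild type 1, the array with the lowest Pck1. Wild type 2 was at 7.996, and wild type 3 (7.37) lay among the knockout arrays. Wild type 1 also had the lowest thermogenic signal (10.06). The means of Myh1, Myh7 and Myod1 were under 2.68 in both groups, and 1 of 17 muscle markers fell (Tnni1), 5.88% and so near the share of all genes. Knockout 3 had the highest thermogenic mean (8.39, against 7.88 and 7.92 on knockout 1 and 2) and a white adipocyte mean of 11.03, between 10.95 and 11.12.

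**Figure D5:**
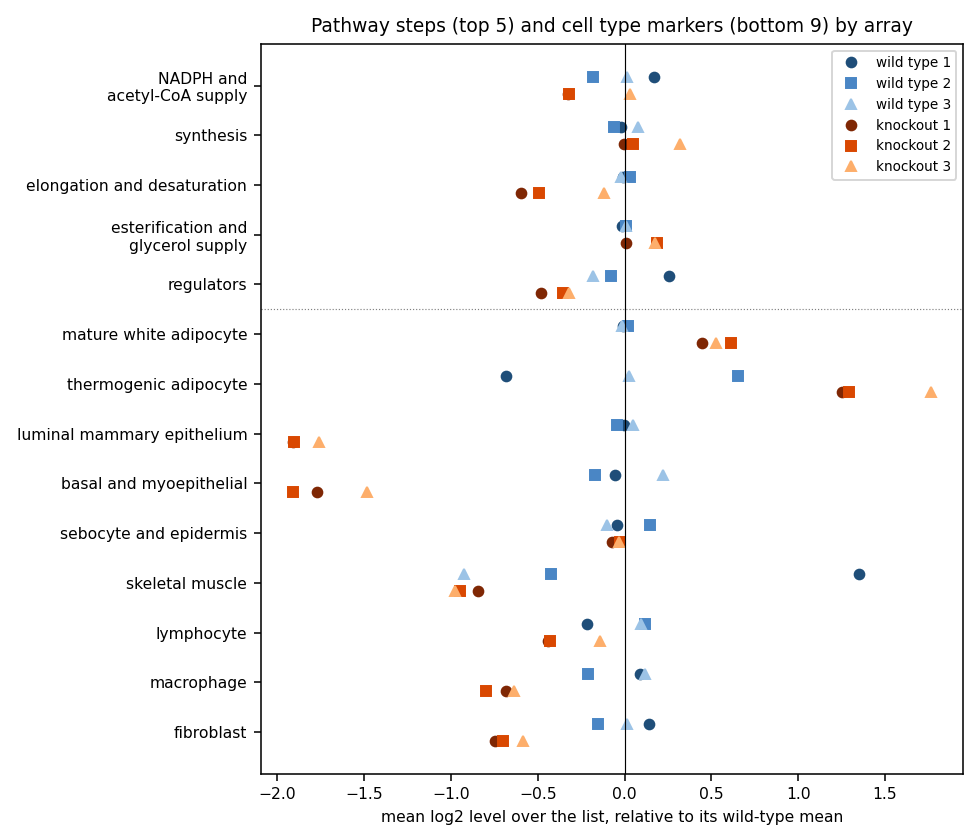
Mean log2 level over each list on each array, relative to the wild-type mean of that list (x axis), for the 5 steps of the pathway (above the dotted line) and 9 lists of cell type markers. The elongation and desaturation step and the regulators lie below 0 on all knockout arrays, with knockout 3 nearest to 0. Luminal and basal markers lie furthest below and thermogenic markers furthest above.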

How the data were processed

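The deposited values are log2 signals, 1 per probe set and array, which the authors made with RMA, per the submitters' processing notes. Those notes also name limma, with no version. RMA and the value range put the scale at base 2. No source used here names the chip definition or a probe filter. Each of the 6 columns carries the accession of its sample.

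Probe sets with 1 gene symbol in the platform annotation (23521 of 41345) were reduced to 22180 genes by the highest mean. Knockout and wild type were compared in R 4.3.3 with limma 3.58.1 (lmFit, eBayes), two-sided, with Benjamini-Hochberg adjustment over all genes and a threshold of 0.05. Standard errors and 95% intervals come from that fit, which has 4 residual degrees of freedom. The number of arrays limits the precision. The labels call the samples biological replicates.

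Members, steps, pairs and lists were chosen with earlier results of these data known. By rule, values on every array are given for each member past the threshold and for 9 central genes, and up to 3 genes are named per other list. Elovl3, Acly, Lpin2 and second probe sets were given in addition, once their values were known. Further genes of the other lists were likewise named beyond that rule, among them genes whose calls were lost with 1 array left out. Alternatives were other variance models, normalizations, probe set rules and filters, a replicate block and 1 array left out. The fits were tested on simulated data.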

Additional observations from a re-analysis of the deposited data

How the results depend on the processing

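The 5 rises were kept with low genes left out, with either intensity trend, array weights, repeated quantile normalization and centring on array medians. Gpd1 was lost with the mean of probe sets, with the replicate block (limma adjusted p = 0.0667), and where every probe set was tested, a setting added after the data were seen, under which 1 member fell. With 1 array left out, 4 to 5 members rose and 2 to 8 fell, and the member median lay between -0.31 and -0.077. Over all genes, 494 to 877 rose and 969 to 1427 fell with 1 array fewer, 1768 rose with arrays centred, which moved the median of all genes from 0.03 to 0.12, and 689 with the replicate block. Of the other pathway genes, 8 to 16 rose and 1 to 2 fell with 1 array fewer. There, 5 fell with low genes left out, 4 with either intensity trend or array weights, and 1 with the replicate block. Elovl3 minus Elovl6 ranged from -0.034 (without wild type 3) to 0.25 with 1 array fewer, and Srebf1 minus Mlxipl from -0.38 to 0.019 (without knockout 1), so both turned sign. Same-numbered arrays did not deviate together over all genes (r = -0.034, -0.052 and -0.032). That gave no sign that the numbers pair the mice, but it cannot exclude a shared litter or batch. In the paired fit with that block Pnpla3 was lost too (limma adjusted p = 0.0736), with 4 members that rose and 3 that fell. Causes were not tested.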
